A study of Oryza sativa and Arabidopsis thaliana with 16 samples.

Results

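The comparison described here is the early shoot response of Arabidopsis thaliana, the thale cress, to added nitrogen. It rests on 4 of the 16 arrays of a series on rice and Arabidopsis, taken by their labels: 2 shoot arrays of nitrogen-treated plants and 2 of KCl-treated control plants. All plants were wild type and 13 days old. The ecotype is not given in the sources used here. They grew hydroponically at pH 5.7 and 22 °C under light of 50 μE, on 3 mM sucrose and 0.5 mM ammonium succinate. At the start of a light period the nitrogen plants were given 20 mM KNO3 together with 20 mM NH4NO3, and were sampled after 2 h. Control plants received KCl at 20 mM for the same time. Chloride and the total amount of added salt therefore differed between the groups too and cannot be told apart from nitrogen. The tissue label of these arrays is shoot, while the protocols speak of whole seedlings.

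Plants take up nitrate and ammonium and turn both into amino acids. Nitrate is first reduced to nitrite in the cytosol and then to ammonium in plastids, which uses electrons from NADH, NADPH or ferredoxin, and the ammonium is joined to carbon skeletons drawn from organic acids. Nitrate is also a signal in itself: within minutes to hours it raises genes for its own transport and reduction, for NADPH supply and for regulators that feed back on uptake.

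The values are RMA expression (robust multi-array average) on a log2 scale, 1 value for each probe set, so that a difference of 1 is a doubling. They carry no detection call, and the number of arrays limits the precision. Nothing in the labels beyond the words biological replicate says whether the arrays of a group came from separate cultures. The shoot control arrays correlated at 0.993 across probe sets and the shoot nitrogen arrays at 0.981, with SDs of 0.21 and 0.35 for the difference within each pair. The root control arrays stood apart at a correlation of 0.956 and an SD of 0.49. They enter the shoot comparison only through the shared estimate of spread, and the root and tissue comparisons directly. The shoot label was checked against markers. The mean of the 11 measured photosynthesis genes lay between 10.9 and 11.3 in the 4 shoot arrays and between 5.70 and 6.44 in the 4 root arrays. The mean of 11 root marker genes lay between 5.29 and 5.48 in shoot arrays and between 7.08 and 8.25 in root arrays. The root marker with the highest shoot level was PYK10, a beta-glucosidase abundant in roots and seedlings, at 11.20 and 11.01 in controls and 11.18 and 9.93 with nitrogen.

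Nitrogen changed 145 of 22746 probe sets in shoots (0.637%). Of these 85 rose (0.374%) and 60 fell (0.264%). The threshold was a limma adjusted p of 0.05, from a linear model with variances moderated across probe sets and fitted on all 8 Arabidopsis arrays, and probe sets past it are called. At an unadjusted p under 0.05 there were 1566. The rises were larger than the falls: the called rises had a median log2 change of 1.89 and reached 6.33, and the called falls had a median of -1.33 and reached -2.72. In each of the 145 probe sets both nitrogen arrays lay beyond both control arrays, as they did in 34.4% of all probe sets. Over all probe sets the median log2 change was -0.01.

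The number of calls depended on single arrays. Without shoot control replicate 1 it fell to 5, each of them a rise, and likewise without shoot control replicate 2. It was 77 without shoot nitrogen replicate 2, and 67 without root nitrogen replicate 1 or replicate 2. Without shoot nitrogen replicate 1 it was 183, with 148 higher and 35 lower. It was 162 without both root control arrays, of which 119 were among the 145, and 62 with the 4 shoot arrays alone. None of the 64 called probe sets that the annotation pairs with 1 gene stayed called without shoot control replicate 1, nor without replicate 2, and 19 of them were called in the other 6 fits that left out 1 array.

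**Figure D1:**
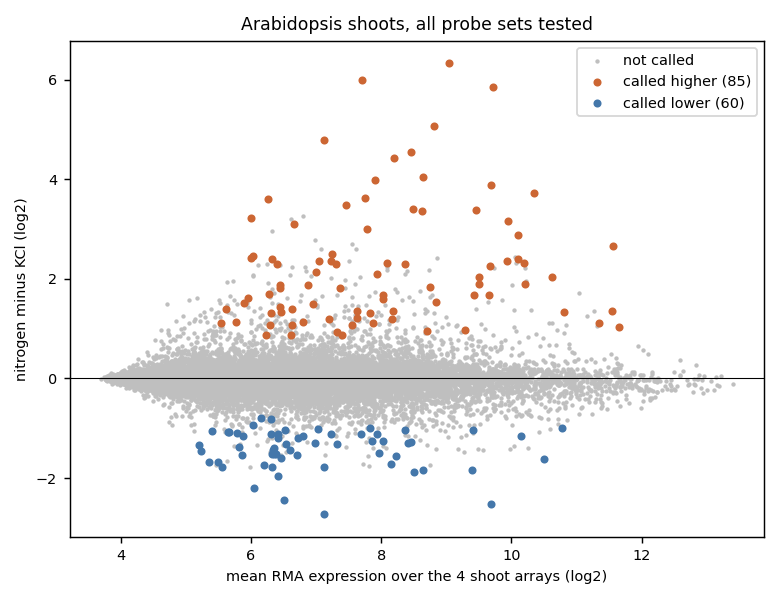
Nitrogen minus KCl (log2, vertical axis) against the mean RMA expression over the 4 shoot arrays (log2, horizontal axis) for the 22746 probe sets, 1 point each, with the 85 called higher and the 60 called lower in colour. Rises reach 6.33 and falls -2.72.

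The annotation used here pairs 54 of the 85 rises and 25 of the 60 falls with no gene, against 8730 of all 22746 probe sets. The share among the falls was near that over all probe sets, and the share among the rises was higher. The largest rise of all was that of 1 such probe set, 265475_at, at 5.80 and 5.97 in controls and 12.36 and 12.06 with nitrogen, an 80.3-fold difference (log2 change 6.33 ± 0.20 SE, n = 2 arrays per group, limma adjusted p = 0.000225). Next came 252367_at at 4.82 and 4.61 in controls and 10.81 and 10.60 with nitrogen (5.99 ± 0.28, adjusted p = 0.00101). The largest fall was that of 254564_at, from 8.55 and 8.42 to 6.05 and 5.48. Nitrate reductase, nitrite reductase, the NRT2.1 transporter, glutamine and asparagine synthetase and the AMT1 transporters are not analysed here.

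Of the genes of NADPH supply, 2 rose. The oxidative pentose phosphate pathway makes NADPH in 2 steps, the second of them catalysed by 6-phosphogluconate dehydrogenase. AT5G41670, 1 of the genes of this enzyme, was at 7.88 and 7.64 in control shoots and 11.52 and 10.77 with nitrogen, a 10.5-fold rise (3.39 ± 0.34, adjusted p = 0.0123). AT1G64190, another gene of the enzyme, rose from 8.56 and 8.62 to 10.57 and 9.96 (1.67 ± 0.21, adjusted p = 0.0258). In both genes nitrogen replicate 1 was the higher of the nitrogen arrays, and the groups did not overlap. The other measured members did not pass: AT3G02360, also a 6-phosphogluconate dehydrogenase gene, changed by 0.05 ± 0.16 and AT1G12230, a transaldolase gene, by -0.27 ± 0.31. Thus 2 of the 4 measured members of this list rose and none fell, where 0.374% of all probe sets rose, and its median was 0.86 against -0.01 over all probe sets. The list was chosen with earlier results of these data known, so these figures describe it and are not a test. With the 4 shoot arrays alone neither rise was called (adjusted p = 0.0517 for AT5G41670 and 0.121 for AT1G64190), nor without moderated variances (0.258 and 0.297). Neither was called without shoot control replicate 1 (adjusted p = 0.125 for AT5G41670 and 0.279 for AT1G64190) or replicate 2 (0.183 and 0.283). AT1G64190 was also not called without root control replicate 1 or 2 (adjusted p = 0.0515 for each), nor without root nitrogen replicate 1 or 2 (0.0671 for each).

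None of the 6 measured organic acid genes was called. Isocitrate dehydrogenases make 2-oxoglutarate, the carbon skeleton onto which ammonium is joined. IDH-V, a subunit of the NAD-dependent mitochondrial enzyme, was at 8.53 and 8.74 in controls and 9.79 and 9.62 with nitrogen (1.08 ± 0.17, adjusted p = 0.0542). IDH-VI, also a subunit, was at 6.23 and 6.28 against 8.23 and 7.62 (1.67 ± 0.34, adjusted p = 0.135), and cICDH, the cytosolic NADP-dependent enzyme, differed by 0.65 ± 0.18 (adjusted p = 0.328). In each of these the nitrogen arrays lay above the control arrays, and the differences did not pass the threshold. IDH-VI passed with dim probe sets left out (adjusted p = 0.0456) and with array weights (0.0309). IDH-III, IDH-IV and ICDH differed by 0.09, 0.02 and -0.03.

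Among regulators, the measured genes belong to the HRS1/HHO group of GARP-type transcription factors. Some members of this group are repressors of nitrate uptake genes that nitrate itself induces. HHO2 (AT1G68670) was at 6.61 and 7.02 in control shoots and 8.31 and 8.27 with nitrogen (1.48 ± 0.24, adjusted p = 0.0602). HHO3 (AT1G25550) was at 7.36 and 7.72 against 9.38 and 8.83 (1.57 ± 0.27, adjusted p = 0.0822). Neither passed, although both nitrogen arrays lay above both controls. HHO2 passed with dim probe sets left out (limma adjusted p = 0.0226), with an intensity trend in the variances (0.0476) and with array weights (0.0312). HHO3 passed with dim probe sets left out (0.0264) and with array weights (0.0386), and not with the intensity trend (0.0547). In the remaining alternative runs neither passed. With the 4 shoot arrays alone the adjusted p was 0.0880 for HHO2 and 0.147 for HHO3, and without moderated variances 0.423 and 0.493. HHO1, HHO5 and HHO6 differed by 0.08 ± 0.13, -0.02 ± 0.15 and -0.15 ± 0.11. The level of HHO1 was low, with a mean of 4.14 in control shoots. HHO5 (AT4G37180) is the member in which the shoot and root values differed most: it rose in roots by 2.07 ± 0.15 (adjusted p = 0.00358), and the difference between the tissues passed the interaction test (adjusted p = 0.0316).

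Of the 22 genes in the list of nitrate transport and reduction 2 were measured, both for transporters. Both were lower with nitrogen without passing the test, and they do not stand for the rest of the list. The high-affinity transporter gene NRT2.5, known as a gene of nitrogen-starved plants, was at 7.36 and 7.26 in controls and 6.16 and 6.90 with nitrogen (-0.78 ± 0.26, adjusted p = 0.478). NRT1.4 (AT2G26690), a nitrate transporter of leaf petioles, was at 9.23 and 9.10 against 8.68 and 8.67 (-0.49 ± 0.20, adjusted p = 0.696). GAT1_2.1, a glutamine amidotransferase-like gene and the measured member of the ammonium list, was at 7.40 and 7.32 against 7.79 and 7.37, where the groups overlap. In roots it rose by 3.29 ± 0.29 (adjusted p = 0.00472). The tissue difference of -3.07 passed the interaction test (adjusted p = 0.0482).

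CC-type glutaredoxins, small plant-specific redox proteins of which several are known to respond to nitrogen status, formed the largest measured list, with 16 of 19 genes. Their median log2 change was 0.57 against -0.01 over all probe sets, and it was 0.20 without shoot nitrogen replicate 2. With dim probe sets left out it was 1.04, over fewer genes. In 12 of the 16 both nitrogen arrays lay above both controls, against 15.7% of all probe sets, and 1 of the 16 was called higher, against 0.374%. This list too was chosen with earlier results of these data known, so these shares are a description and not a test. The 12 include small differences at low levels, such as ROXY1 at 0.08 and GRXS1 (AT1G03020) at 0.09, with control means of 5.12 and 4.36. GRXS5 (AT4G15690) rose from 4.69 and 4.91 to 7.15 and 7.37 (2.46 ± 0.17, adjusted p = 0.00358), and it was the member called. It was not called without shoot control replicate 1 (adjusted p = 0.0773) or replicate 2 (0.0620), nor without moderated variances (0.170). Its neighbours in the same gene cluster had similar differences that did not pass. GRXS4 (AT4G15680) was at 4.99 and 4.93 against 6.57 and 7.92 (2.28 ± 0.41, adjusted p = 0.0876). GRXS3 (AT4G15700) was at 4.15 and 4.35 against 5.36 and 6.30 (1.58 ± 0.30, adjusted p = 0.104). GRXS8 (AT4G15660) was at 3.96 and 3.94 against 4.72 and 6.18 (1.50 ± 0.42, adjusted p = 0.321). The genes of this cluster are nearly identical in sequence, so a probe set of 1 of them may also have taken up RNA of the others, and their separate values are uncertain. GRXS3, GRXS4, GRXS5 and GRXS8 are all among the 12 above. In GRXS3, GRXS4 and GRXS8 nitrogen replicate 2 was well above replicate 1. Outside the cluster, GRXS2 (AT5G18600) was at 8.43 and 8.41 against 9.37 and 9.54 (adjusted p = 0.0540), and GRXS6 (AT3G62930) at 4.63 and 4.54 against 6.10 and 5.62 (adjusted p = 0.0523). AT2G47880 had the lowest difference of the list, -0.37 ± 0.27.

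**Figure D2:**
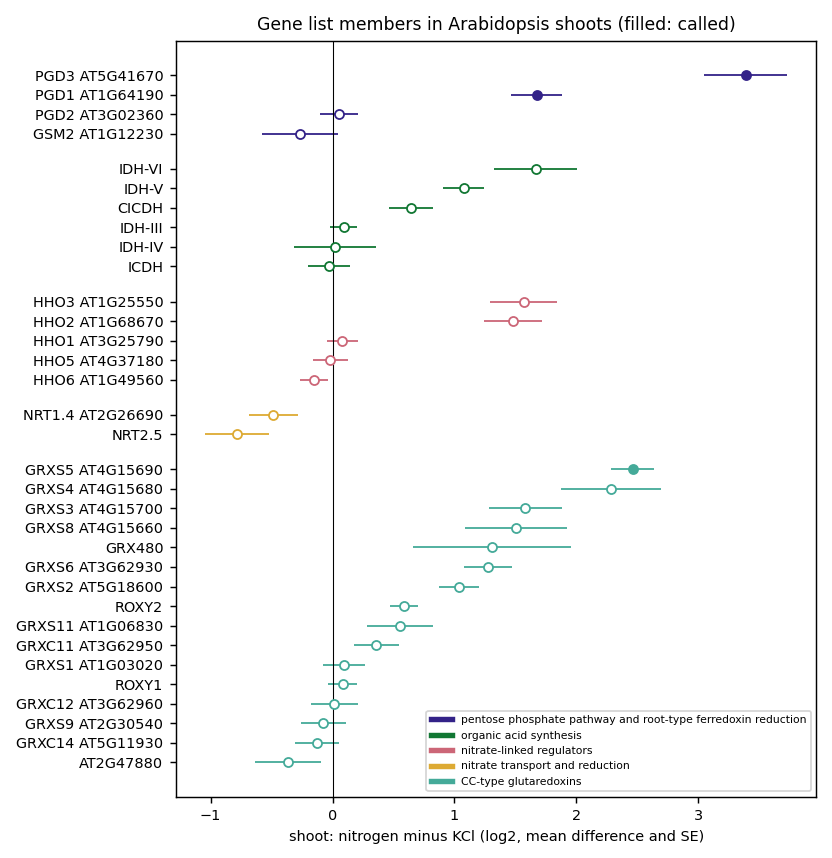
Log2 change in shoots (nitrogen minus KCl, horizontal axis) with its standard error for the measured members of 5 gene lists, 1 row per gene, filled where called. The filled points are 2 genes of 6-phosphogluconate dehydrogenase, at 3.39 and 1.67, and GRXS5 at 2.46.

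Other lists held few measured genes and no called ones in shoots. Sulfite reductase SIR, which also draws on ferredoxin, was at 7.84 and 7.97 against 9.14 and 8.49 (0.91 ± 0.25, adjusted p = 0.301), and the ATP sulfurylase genes APS3 and APS4 differed by -0.05 and -0.13. The zinc finger gene STZ was at 6.30 and 6.78 against 7.48 and 9.21 (1.81 ± 0.53, adjusted p = 0.358), while CML38, the other touch and wound gene, differed by 0.15. The difference of STZ rested on single arrays: it was 2.67 and passed without shoot nitrogen replicate 1 (adjusted p = 0.0334), and 0.95 without replicate 2 (adjusted p = 0.770). The cytokinin response regulators ARR16 and ARR15 differed by 0.54 ± 0.32 and 0.44 ± 0.28. Of 4 sugar and starch genes the largest difference was that of APL3, a subunit of the starch synthesis enzyme ADP-glucose pyrophosphorylase, at -0.35 ± 0.20. Among 3 iron genes it was that of AT1G47400 (0.26 ± 0.22), among 3 cold and dehydration genes that of COR47 (0.26 ± 0.27), among 3 heat shock genes that of AT1G53540 (0.23 ± 0.94) and between 2 anthocyanin genes that of UF3GT (-0.32 ± 0.31). The clock gene GI differed by 0.25 ± 0.17. The 11 photosynthesis genes had a median of -0.21, and the lowest was PRK, phosphoribulokinase of the Calvin cycle, at -0.64 ± 0.21 (adjusted p = 0.477). Each of the 11 differences was below 0 over the 4 arrays. Their median was -0.14 without shoot control replicate 2, where LHCB4.3 and PSBY lay above 0, and -0.11 without shoot nitrogen replicate 2, where LHCB4.3 did. The 11 root markers had a median of -0.02, from -0.55 for PYK10 to 0.07. The part of these marker differences in the called changes was not tested. No hemoglobin or phosphate starvation gene of the lists was matched to a probe set paired with 1 gene. Their absence here comes from the matching and says nothing of their response.

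Of the called probe sets, 30 that rose and 34 that fell are paired with 1 gene each. Among these the largest rise was that of AT1G49500, at 6.66 and 6.58 in controls and 11.06 and 10.27 with nitrogen, 16.5-fold (4.05 ± 0.29, adjusted p = 0.00358). It also rose in roots, by 4.36 ± 0.29, and the tissues did not differ by the interaction test (adjusted p = 0.705). AT2G41730 followed, from 5.64 and 5.80 to 9.66 and 8.76 (3.49 ± 0.28, adjusted p = 0.00458). Its probe set is of a type that can also bind RNA of other genes. AT3G19030 rose from 7.00 and 6.90 to 10.40 and 10.21 (3.36 ± 0.37, adjusted p = 0.0181).

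MT1C, a metallothionein, which is a cysteine-rich protein that binds metals, was already high in controls at 9.07 and 8.26 and reached 11.41 and 11.69 (2.89 ± 0.29, adjusted p = 0.0117). AT5G62720, a plastid membrane protein of the HPP family linked to nitrite transport, rose from 5.32 and 5.18 to 7.72 and 7.37 (2.29 ± 0.21, adjusted p = 0.00732). PMEAMT, a methyltransferase of phosphatidylcholine synthesis, rose from 5.76 and 6.10 to 8.45 and 7.69 (2.14 ± 0.27, adjusted p = 0.0288). PGM rose from 4.96 and 5.27 to 8.76 and 7.67 (3.10 ± 0.46, adjusted p = 0.0442). By its gene number this PGM lies among genes of chromosome 1, so it is not the phosphoglucomutase gene of chromosome 5 that was fixed in the sugar list. AT5G51440, a small heat shock protein, rose from 4.83 and 4.74 to 7.04 and 7.39 (2.43 ± 0.31, adjusted p = 0.0296).

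Also among the 15 largest rises was AT3G16560, a protein phosphatase of type 2C, which rose from 7.35 and 7.10 to 9.72 and 9.31 (2.29 ± 0.22). AT1G73920, a lipase-like gene, rose from 8.57 and 8.55 to 10.64 and 10.26 (1.89 ± 0.17). AT5G65660, of the hydroxyproline-rich glycoproteins, rose from 8.36 and 8.61 to 10.77 and 10.29 (2.05 ± 0.19). AT5G19970 rose by 2.40 ± 0.16 and AT1G70780 by 2.33 ± 0.15. The other 15 genes rose by 1.08 to 1.88. Among them, chosen for mention after their values were seen, were AT3G58610, ketol-acid reductoisomerase of branched-chain amino acid synthesis, which rose from 10.74 and 10.83 to 12.03 and 11.78, and the ubiquitin-conjugating enzyme gene UBC18, from 7.17 and 7.19 to 8.50 and 8.47. AT4G14480, the BLUS1 kinase of blue-light-driven stomatal opening, was another, from 5.27 and 5.03 to 6.44 and 7.08.

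The largest fall of a gene was that of AT3G26510, a PB1 domain protein, which was high in controls at 10.89 and 11.01 and fell to 8.58 and 8.27, 5.73-fold lower (-2.52 ± 0.18, adjusted p = 0.00358). AT1G64590, a dehydrogenase of the short-chain type, fell from 7.27 and 7.52 to 5.20 and 5.68 (-1.95 ± 0.22, adjusted p = 0.0203). It was called lower in roots too (adjusted p = 0.00693). AT4G17670, of the FCS-like zinc finger proteins, fell from 6.50 and 6.16 to 4.64 and 4.65 in shoots (-1.68 ± 0.25), near the threshold (adjusted p = 0.0449). It was called lower in roots as well, at -2.55 ± 0.25.

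AT3G13610, the feruloyl-CoA hydroxylase that makes the coumarin scopoletin, fell from 7.14 and 7.28 to 5.48 and 5.41 (-1.77 ± 0.16, adjusted p = 0.00732). AT2G29290, a tropinone reductase-like dehydrogenase, fell from 9.07 and 8.96 to 7.50 and 7.09 (-1.72 ± 0.18, adjusted p = 0.0145). ATSPS4F, a sucrose-phosphate synthase, fell from 6.33 and 6.66 to 5.20 and 5.06 (-1.37 ± 0.17, adjusted p = 0.0258). In each of these the nitrogen arrays lay below the controls by more than the gap within either pair.

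CHX16, a cation and proton exchanger, fell from 9.09 and 8.93 to 7.44 and 7.46 (-1.56 ± 0.22, adjusted p = 0.0388). AT4G01460, a bHLH transcription factor, fell from 7.00 and 7.13 to 5.38 and 5.29 (-1.73 ± 0.12, adjusted p = 0.00358). AT3G23880, an F-box protein, fell from 7.75 and 8.26 to 6.51 and 5.95 (-1.77 ± 0.24, adjusted p = 0.0337). PAP85, a vicilin-like seed storage protein gene, fell by 1.53 ± 0.14, AT5G37540, an aspartyl protease, by 1.52 ± 0.21, and AT2G03550, an alpha/beta hydrolase, by 1.53 ± 0.13. AT4G19160, AT3G28270 and AT3G19680 fell by 1.87, 1.47 and 1.44. The other 19 genes had changes of -0.78 to -1.31. These included the transcription factor genes WRKY22 (8.23 and 8.42 against 7.24 and 7.40) and MYBC1 (8.23 and 8.27 against 6.99 and 7.27), named after their values were seen.

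**Figure D3:**
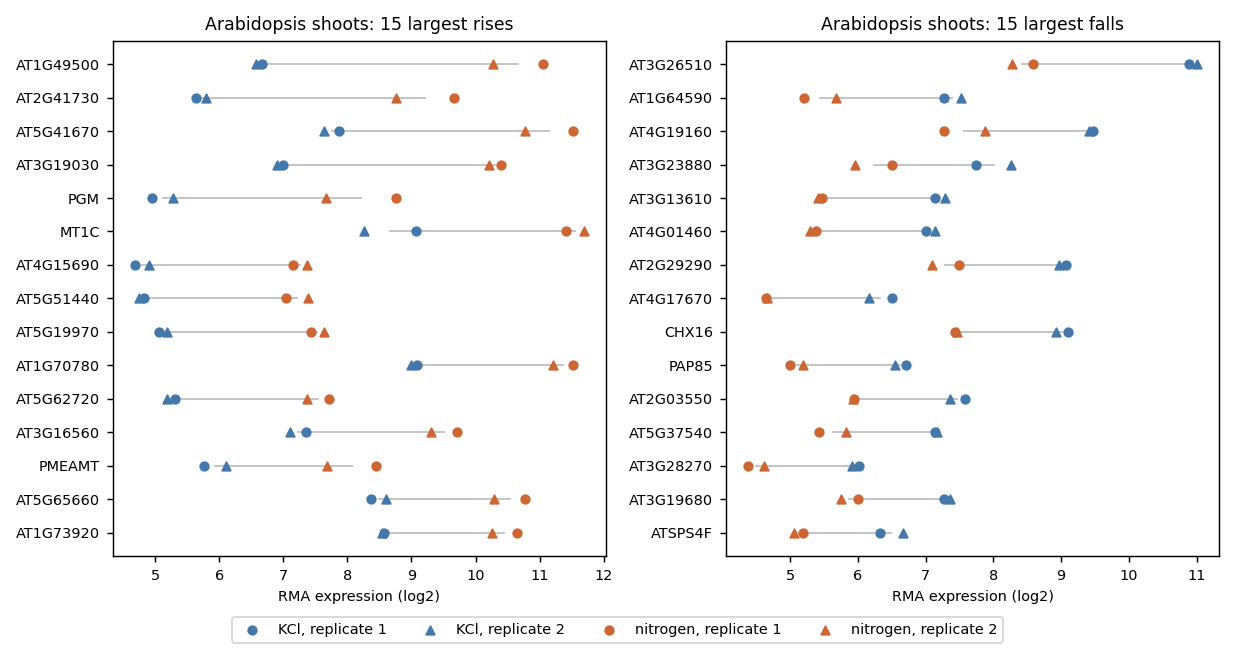
RMA expression (log2, horizontal axis) of the 15 genes with the largest rises (left) and the 15 with the largest falls (right) in each of the 4 shoot arrays, with circles for replicate 1, triangles for replicate 2 and a line joining the group means. No gene's groups overlap, and AT1G49500 has the longest line at 4.05.

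Of the 85 probe sets that rose in shoots, 54 (63.5%) were called higher in roots, none was called lower and 31 were not called, where 6.94% of all probe sets were called higher. They made up 3.42% of the root rises. Of the 60 that fell in shoots, 13 (21.7%) were called lower in roots, 6 were called higher and 41 were not called, against 4.44% called lower over all probe sets. Over these sets the median root change was 1.18 for the shoot rises and -0.31 for the shoot falls. Root and shoot have their own control arrays but share 1 estimate of spread for each probe set.

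The direct test of a difference between the tissues called 110 of 22746 probe sets (0.484%), and 18 of these were among the 145, with 8 of the rises and 10 of the falls. The 145 were picked for their shoot change, which is part of this difference and has the same spread. A higher share among them thus follows in part from the choice and is not a separate test. AT2G41730, which rose in shoots, was at -0.20 ± 0.28 in roots, and the shoot response exceeded that of roots by 3.70 ± 0.39 (adjusted p = 0.0320). GRXS5 (AT4G15690) was at 0.14 ± 0.17 in roots, a difference of 2.32 ± 0.25 (adjusted p = 0.0320). AT3G26510 was at -0.33 ± 0.18 in roots, a difference of -2.19 ± 0.25 (adjusted p = 0.0388), and AT4G01460 differed by -1.38 ± 0.17 (adjusted p = 0.0399). AT5G26200, a mitochondrial carrier that rose in shoots by 1.51 ± 0.13 and was at 0.00 in roots, is named after its values were seen (adjusted p = 0.0388).

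The 6 probe sets that fell in shoots and rose in roots had root changes of 0.68 to 1.33, and each passed the interaction test. They were picked for opposite calls in shoots and roots under the same spread. Passing this test was thus all but set by the choice and adds no separate support. Of the 6 probe sets, 2 are paired with 1 gene, named after their values were seen. AT1G66180, an aspartyl protease, was at 10.70 and 10.74 in control shoots and 9.78 and 9.36 with nitrogen (-1.15 ± 0.16), and it rose in roots by 1.15 ± 0.16 (interaction adjusted p = 0.0316). AT4G28290 fell in shoots by 1.11 ± 0.15 and rose in roots by 0.88 ± 0.15 (interaction adjusted p = 0.0320). These tissue differences rest in part on the root control arrays that stood apart. The number of interaction calls was 3178 without root control replicate 1 and 1469 without replicate 2. It was 0 without root nitrogen replicate 1 or 2 and without shoot control replicate 1 or 2, 92 without shoot nitrogen replicate 1 and 5 without replicate 2.

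**Figure D4:**
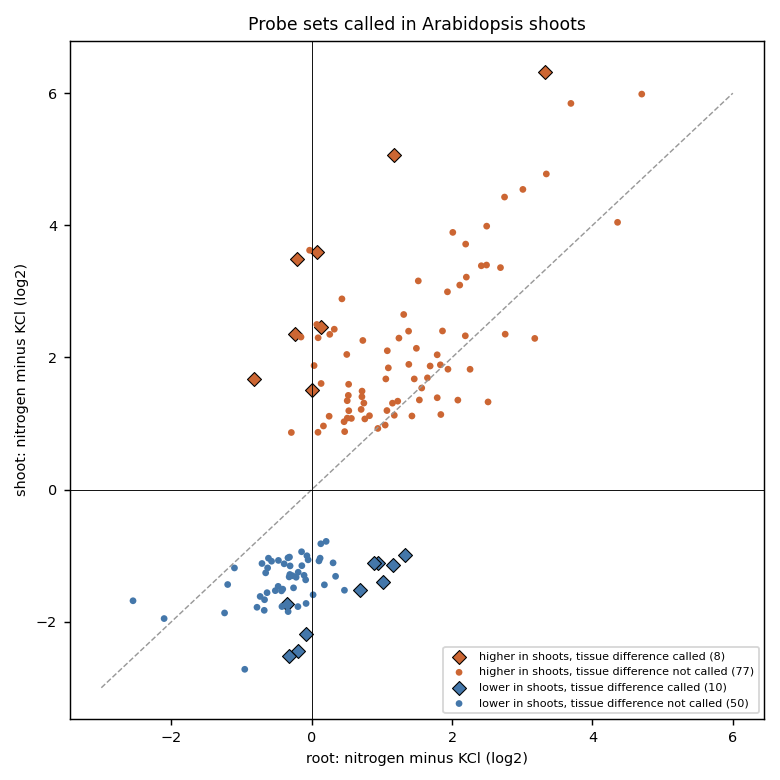
Log2 change with nitrogen in shoots (vertical axis) against that in roots (horizontal axis) for the 145 probe sets called in shoots, with diamonds for the 18 whose tissue difference was called and a dashed line where both changes are equal. The 6 diamonds at the lower right fell in shoots and rose in roots.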

How the data were processed

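The deposited values are log2 expression per probe set that the authors made with RMA, per the submitters' processing notes. Its version is not given in the sources used here. Of 22810 probe sets, 64 control probe sets were left out. The platform annotation pairs 13513 of the 22746 others with 1 gene, 503 with several and 8730 with none.

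The log2 values were fitted with limma 3.58.1 in R 4.3.3, with 4 group means over the 8 Arabidopsis arrays (4 residual degrees of freedom), moderated variances and two-sided p values adjusted by Benjamini-Hochberg over all probe sets. Changes are given with their standard error. The interaction is the shoot minus the root change. The fit was tested on simulated data with 200 changed probe sets. There it recovered 44% of log2 changes of 1 and 80% of log2 changes of 2, with 6 false calls. A change near 1 could thus often stay uncalled.

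The 19 gene lists were matched by locus or symbol, with the chromosome of the gene number checked (3 symbols, PGM, PS2 and CHI, stood for other genes). Of 391 entries 79 were measured, by the probe set of highest mean. Measured here means that the annotation pairs a probe set with that gene alone. Other entries may lie among the tested probe sets that it pairs with no gene or with several. Named genes are the 15 largest called rises and falls with 1 gene and groups that do not overlap, up to 5 called members of each list or else the largest difference, and all measured HHO and nitrate genes. Members and lists were chosen with earlier results of these data known. Promoter motifs were not analysed here, as no sequence was used.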

Additional observations from a re-analysis of the deposited data

Results flagged for a closer look

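The interaction test called 110 of all probe sets. Among the genes named by rule and the other genes called in shoots, 84 in all, the nitrogen response of shoots differed from that of roots in 9 by this test in limma (adjusted p under the threshold). Most of the 84 were picked for their shoot change, which is part of this difference, so their share is not a separate test. The shoot minus root response was 3.70 for AT2G41730, 2.32 for AT4G15690 and 1.51 for AT5G26200, which rose in shoots and were not called in roots. It was -2.19 for AT3G26510 and -1.38 for AT4G01460, which fell in shoots and were not called in roots. It was -2.30 for AT1G66180 and -1.99 for AT4G28290, which fell in shoots and rose in roots. It was -3.07 for GAT1_2.1 and -2.09 for AT4G37180, which rose in roots and were not called in shoots.

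None of the 9 stayed called in every fit that left out 1 array. AT2G41730 was called in 4 of 8 such fits, with adjusted p from 0.0164 to 0.264, and GAT1_2.1 in 2 of 8, with adjusted p from 0.0129 to 0.274.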

How the results depend on the processing

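No named gene called in shoots changed direction in any alternative run, but most runs could not have reversed one. The groups of these genes did not overlap, so leaving out 1 array keeps the sign. Runs that altered only the root arrays or the estimate of spread left the shoot change as it was. The reported counts were 145 shoot calls (85 higher, 60 lower) and 110 interaction calls. Shoot calls were 62 (39 higher, 23 lower) with the shoot arrays alone, 406 (211 and 195) with array weights and 0 (0 and 0) without moderated variances in limma, where 1334 had an unadjusted p under 0.05. Interaction calls were 24 after quantile normalization, 42 with each array centred on its median, 58 with dim probe sets left out, 34 without moderated variances, 313 with an intensity trend and 27 with array weights. Leaving out 1 array at a time gave 5 to 183 shoot calls, 5 to 148 higher and 0 to 70 lower, and 0 to 3178 interaction calls, with 2547 to 3242 at an unadjusted p under 0.05 in the 4 fits that gave 0. With 1 array left in a group, that array is assumed to vary like the other groups. The causes were not tested. Shoot calls after quantile normalization (119), centring (146), the dim filter (166), an intensity trend (146) and without both root control arrays (162) stayed within 1.5 times the reported count, as did the 135 with at least a 2-fold change, an alternative chosen after seeing the data. The replicate numbers of the labels were not shown to pair the arrays. Across probe sets the gap between replicates 1 and 2 correlated between groups at values from -0.425 to 0.391. It was -0.380 between shoot control and shoot nitrogen arrays, where same-numbered arrays thus tended to deviate in opposite directions. The cause was not tested. With the replicate number as a block there were 91 shoot calls (60 higher, 31 lower) and 0 interaction calls in limma, with 3835 at an unadjusted p under 0.05.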

Other observations

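The nitrogen arrays differed from each other more than the control arrays did, both over all probe sets and among those that rose. Over all probe sets the SD of the difference was 0.35 for the nitrogen pair and 0.21 for the KCl pair. Over the 85 rises the median gap of the nitrogen pair was 0.30 and that of the KCl pair 0.13, and over the 60 falls these gaps were 0.16 and 0.13. Nitrogen replicate 1 was the higher one in 59 of the 85 rises, and the share over all probe sets was not counted. The opposite order held in some genes that were not called: STZ was at 7.48 in nitrogen replicate 1 and 9.21 in replicate 2, against 6.30 and 6.78 in controls, and the glutaredoxin gene GRX480 was at 5.18 and 7.52, both above its controls.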
